A study of Mus musculus with 20 samples.

Results

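The cytosolic ribosomal protein genes are described here across sorted mouse CD4 T cells, on single-colour Agilent arrays that held 39429 probes. Members were chosen by name, as every gene called Rpl or Rps with a number, Rplp0, Rplp1, Rplp2 or Rpsa, leaving out the Rps6 kinase genes. This gave 84 genes with 191 probes, and each gene is represented by its brightest probe unless stated otherwise. In all, 82 of the 84 genes were detected on all 20 arrays and were tested among 22264 probes. Rpl3l and Rpl10l, paralogs known from muscle and testis, were not well above background on any array.

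All mice carried the Foxp3 reporter allele of strain B6.Cg-Foxp3<tm1Mal>, in which GFP marks Foxp3-expressing cells, and were 8 to 14 weeks old. Each array held RNA of 1 sort from the pooled cells of 8 to 15 mice of mixed sex, so an array is a pool and not a mouse. In peripheral lymph nodes (pLN), mice had been immunised subcutaneously with KLH in alum. Foxp3- cells gave a naive group and a group of helper cells of the B-cell follicle (TFH), and Foxp3+ cells gave a group of conventional regulatory cells (Treg) and a group of follicular regulatory cells (TFR). They were sorted on day 12 (d12 p.i., 2 arrays per group used here) and on day 25 (d25 p.i., 1 array per group used here). The study describes more experiments per group in pLN than these, and the others were not analysed here. Peyer's patches (PP), for which the labels name no immunisation, gave Treg cells, TFR cells and separate GL7+ and GL7- groups of TFH cells. Each PP group had 2 arrays, and there was no naive group. GL7 is a surface epitope of activated lymphocytes in germinal centres. TFH cells were sorted as GFP- PD1hi and GL7+ in pLN, Treg cells as GFP+ PD1- GL7-, TFR cells as GFP+ PD1hi whatever their GL7, and naive cells as GFP- PD1- GL7-.

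Ribosomal proteins bind the ribosomal RNAs to form the small (Rps) and the large (Rpl) subunit of the ribosome that translates cytosolic mRNA. Their mRNAs are abundant and long-lived, and many begin with a C followed by a run of pyrimidines at the very 5′ end, the terminal oligopyrimidine (TOP) motif. TOP mRNAs are translated under the control of the kinase mTOR and its partner Larp1, so that the output of these genes is regulated to a large extent at translation, which arrays of total RNA do not measure. Naive T cells are quiescent and keep ribosomal protein mRNA in store. Activated T cells raise ribosome production.

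The start-site windows of some members are shown with the pyrimidine runs found near the start. Each window is 30 bases long, 15 on either side of the start of transcription given by RefSeq (build GRCm38.p6), printed 5′ to 3′ on the gene's strand. Capitals mark a run of at least 8 C or T bases that reaches within 5 bases of the start. The first set belongs to members with such a run, namely Rps6 (chr4:86857353-86857382, minus strand), Rplp2 (chr7:141447636-141447665, plus), Rpl18 (chr7:45718056-45718085, plus), Rpl22l1 (chr3:28805493-28805522, plus), Rps27 (chr3:90213634-90213663, minus) and its paralog Rps27l (chr9:66946071-66946100, plus, 1 of 2 starts in the table).
Rps6: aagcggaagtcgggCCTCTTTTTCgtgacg
Rplp2: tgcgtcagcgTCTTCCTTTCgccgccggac
Rpl18: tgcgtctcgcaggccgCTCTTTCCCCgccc
Rpl22l1: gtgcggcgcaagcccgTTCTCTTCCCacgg
Rps27: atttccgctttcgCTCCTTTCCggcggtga
Rps27l: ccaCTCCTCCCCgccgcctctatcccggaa
In Rps27l the run lies wholly before the given start, so this window does not show a TOP start.

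The second set is shown because 3 of these genes, Rpl36a, Rps19 and Rps3, were called in comparisons below although their windows hold no run of that length, and because Rps4x had the lowest adjusted p of all members in 1 comparison. They are Rpl36a (chrX:134585639-134585668, plus), Rps19 (chr7:24884577-24884606, plus, the first of 3 starts), Rps3 (chr7:99483695-99483724, minus) and Rps4x (chrX:102189377-102189406, minus).
Rpl36a: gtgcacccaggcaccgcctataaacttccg
Rps19: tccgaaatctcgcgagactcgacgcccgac
Rps3: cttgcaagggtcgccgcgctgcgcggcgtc
Rps4x: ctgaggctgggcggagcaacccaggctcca

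Of the 62 members with a window in the table, 24 (38.7%) held a run in at least 1 of their windows. Counted per window, 24 of 74 member windows (32.4%) held one, beside 3081 of 32851 windows of all genes (9.38%), on the strand of the gene. A shorter run or a start a few bases away would be missed, so the absence of a run in a window says only that these letters are not there. Between pLN d12 TFH and naive cells, the median log2 difference after scaling to the 75th percentile was -0.95 for the 24 tested members with a run and -0.94 for the 36 without one. After quantile normalisation it was -0.11 with a run and -0.06 without, and the difference between these sets was not tested.

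The arrays lay on 5 slides, each with the 4 groups of 1 tissue and day. Slides 1 and 2 held replicates 1 and 2 of pLN d12, slide 3 held pLN d25, and slides 4 and 5 held replicates 1 and 2 of PP. The labels give an RNA input of 50 ng for slides 1 and 4, and of 40 ng otherwise. All 3 CD4 T-cell markers were detected on every array. The summed intensity of 12 B-cell markers, after scaling to the 75th percentile, lay between 23890 and 142300 on slide 4 and between 4737 and 25950 on the other slides, and 7 to 8 of 8 epithelial markers were detected on slide 4 against 2 to 6 elsewhere. Tissue cannot be told apart from slide in the comparisons between pLN and PP, and the local background of pLN d12 TFR replicate 2 was 268 against 24 to 78 on the other arrays.

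Member probes were among the brightest on the array. The mean log2 intensity was at least 17 for 74 of the 84 members, a level that 713 of the 39429 probes reached, and no probe was saturated. Brightness depends on the probe as well as on the transcript, so levels are compared between arrays and not between genes. The position at the top of the scale makes the result depend on how arrays are made comparable. Quantile normalisation, which the authors used and which is the scaling of the tests unless stated otherwise, gives every array the same set of values and so fixes the level of the brightest probes as a whole. Scaling each array to its 75th percentile alone leaves their level free.

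On quantile-normalised values few members differed between any groups. By limma's F test across the 12 groups, 0 of 82 members were called at p under 0.001 and adjusted p under 0.005, while 17.3% of all tested probes were called, and 6 members had an unadjusted p under 0.05. The lowest F test p belonged to Rpl36a (adjusted p = 0.0117, limma), followed by Rps19 (0.029), Rps3 (0.0429) and Rps27l (0.0446). On this scale the replicates of the members were close, with a median residual SD of 0.0909 (log2) over the members and 0.341 over all tested probes. Rps21, Rpl39l and Rpl5 were the exceptions with residual SDs of 0.787, 0.538 and 0.475. After scaling to the 75th percentile alone the median residual SD was 0.248 over the members and 0.347 over all tested probes. The small spread of the members thus belonged to the quantile-normalised values.

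After scaling to the 75th percentile alone, the members were lower as a group in follicular cells. Between pLN d12 TFH and naive cells, 61 of 82 members fell at an adjusted p under 0.05 (limma), 28 of them at least 2-fold, and the median log2 difference was -0.96. Of all tested probes, 10.9% fell in that comparison, with a median of -0.14. Between PP TFR and Treg cells 26 members fell with a median of -0.80 (5.41% of all tested probes fell), and between PP GL7+ TFH and Treg cells 22 fell with a median of -0.77 (6.55% of all). In pLN d12, 2 members, Rps4x and Rpl18, fell between TFR and Treg cells, where the median was -0.52 and 4.67% of all tested probes fell. No member rose in these 4 comparisons under this scaling. The counts rested on few arrays, since leaving out 1 array at a time gave 12 (without naive replicate 1) to 60 members in place of 61, 3 (without PP Treg replicate 2) to 24 in place of 26 and 0 (without PP GL7+ TFH replicate 1 or PP Treg replicate 2) to 18 in place of 22. In the pLN comparison of TFR with Treg cells it gave 0 in place of 2. The TFH to naive and the TFR to Treg comparisons share no arrays within a tissue, whereas both PP comparisons share the Treg arrays.

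**Figure D1:**
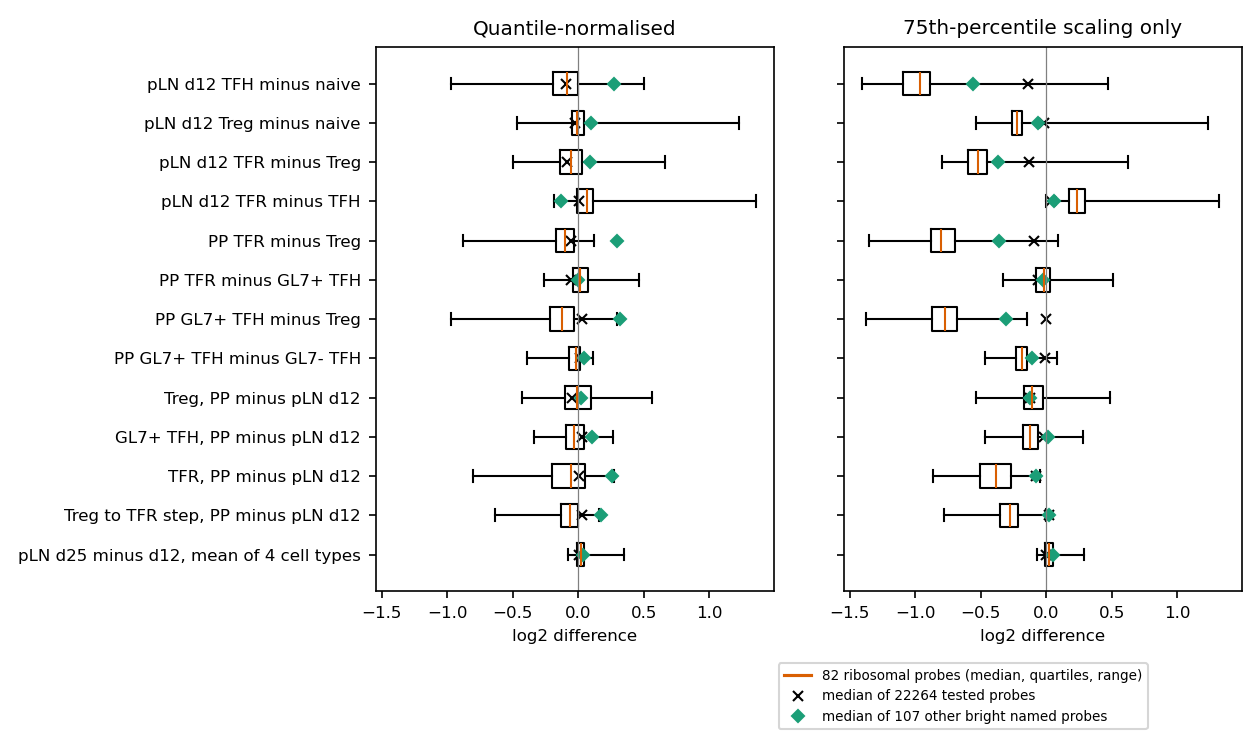
Log2 differences (x axis) of the 82 tested cytosolic ribosomal protein genes in 13 comparisons, after quantile normalisation (left) and after scaling to the 75th percentile alone (right). Boxes give the quartiles with the median as an orange line, whiskers the range, crosses the median of all 22264 tested probes and diamonds the median of 107 other bright named probes. On the right the boxes of TFH minus naive, TFR minus Treg and GL7+ TFH minus Treg lie below 0, with medians of -0.96, -0.52 (pLN), -0.80 (PP) and -0.77, while on the left all medians lie between -0.12 and 0.06.

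The value used for scaling itself differed between the cell types. The log2 of the 75th percentile of the processed signal lay between 10.51 and 10.78 on the 12 arrays of TFH and TFR cells and between 9.73 and 10.54 on the 8 arrays of naive and Treg cells. Scaling to the same total signal instead, an alternative chosen after seeing the data, gave a median of -0.36 between pLN d12 TFH and naive cells with 8 members lower and 2 higher, and medians of -0.31 and -0.33 in the PP comparisons of TFR and GL7+ TFH with Treg cells. Scaling to the Agilent spike-in RNAs turned the direction of the pLN median to 0.17, with 0 members lower at adjusted p under 0.05, while the PP medians stayed negative at -0.63 and -0.47. The spike-in value rested on 6 of 10 probes, and within slides it gave 0.52 on slide 1, -0.19 on slide 2 and -0.22 on slide 3 for TFH minus naive. Each array was labelled from a set mass of RNA, and the spike-ins were added to RNA and not to counted cells. None of these scalings can therefore follow the amount of mRNA per cell. Within a sorted pool, a different mix of cells and a different level per cell cannot be told apart.

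The share of an array's signal held by the members needs no scaling. The 84 probes held 9.04% and 8.84% of the total processed signal on the pLN d12 naive arrays and 8.75% on the d25 naive array. pLN Treg cells followed with 8.22% and 8.35% at d12 and 8.51% at d25, and PP Treg cells with 8.06% and 8.90%. Naive and Treg arrays were thus all above 8%. pLN TFR arrays had 7.01% and 7.26% at d12 and 7.28% at d25, and PP TFR arrays 6.58% and 7.18%. pLN TFH arrays had 6.57% and 7.28% at d12 and 6.91% at d25, PP GL7- TFH arrays 6.75% and 7.61%, and PP GL7+ TFH arrays 6.40% and 7.16%. The 12 follicular arrays did not overlap with the 8 naive and Treg arrays. This was not particular to the members. Other probes with a mean log2 intensity of at least 17 held 37.7% to 42.0% on the follicular arrays. On the naive and Treg arrays those probes held 43.4% to 46.6%, so they did not overlap either. Among the follicular groups the shares of TFH and TFR arrays overlapped in both tissues, and within PP every group was lower on slide 4 than on slide 5. With 2 arrays per group an exact permutation test of 2 groups cannot reach p = 0.05, and none was run.

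Other bright probes lost signal in the same arrays. The 568 other tested probes with a mean log2 intensity of at least 17 had a median log2 difference of -0.95 between pLN d12 TFH and naive cells after scaling to the 75th percentile, next to -0.96 for the members. Of these 568, 81 carry Gm names and 6 Rp names, and many of them have no protein-coding symbol. A narrower set, chosen after seeing the data, was the 107 probes of 94 named protein-coding genes outside the family. Among them were Actb, B2m, Cd52, Tuba1b, Ldha, the mitochondrial COX1 and Gapdh, which the paper reports as raised in follicular cells. The set also held Tpt1 and Pabpc1, which are on the list of TOP mRNAs counted below. It further held probes named for genes such as Slc10a1, Sprr2a2 and Lrrc31, and which transcripts these probes take up was not tested. The median of this set was -0.56 in that comparison, and 78 of 82 members lay below it. On quantile-normalised values the set's median was 0.27 and the members' was -0.09. Between PP TFR and Treg cells these were 0.29 and -0.10. On that scale the set rose more than the members fell, so it is not a fixed reference.

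Within an array, the median of the 82 members minus the median of these 107 probes does not depend on the scaling to the 75th percentile, the total or the spike-ins. This difference is a contrast between 2 probe sets, so only its change from array to array is of use. On pLN d12 it was 0.98 and 1.01 on the naive arrays, 0.73 and 0.85 on the Treg arrays, 0.54 and 0.61 on the TFR arrays and 0.37 and 0.57 on the TFH arrays. In PP it was 0.72 and 0.91 for Treg, 0.29 and 0.35 for TFR, 0.28 and 0.49 for GL7- TFH and 0.21 and 0.32 for GL7+ TFH cells. The mean difference between TFH and naive arrays was -0.52, and in PP those of TFR and GL7+ TFH from Treg arrays were -0.49 and -0.54, beside a pooled SD of 0.0992 between replicates. In pLN the mean difference between TFR and Treg arrays was -0.21. It was -0.48 for TFH minus naive and -0.20 for pLN TFR minus Treg on quantile-normalised values. With the 301 probes from a mean log2 intensity of 16 as the comparison set, these became -0.71 and -0.34.

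**Figure D2:**
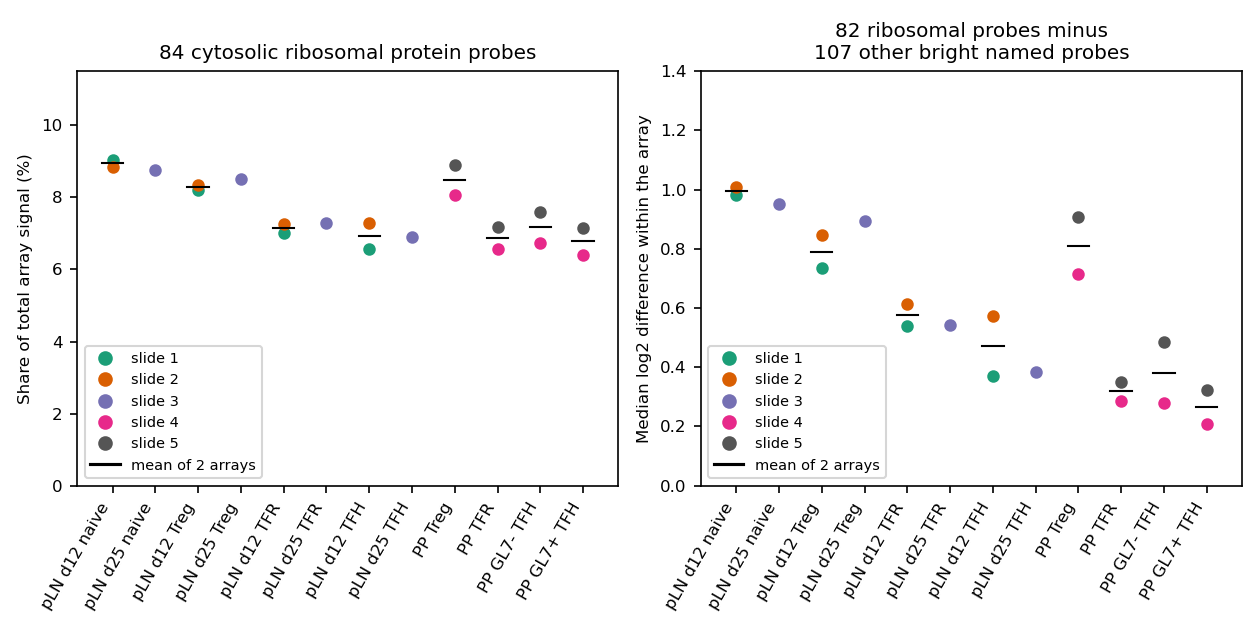
Share of total array signal held by the 84 cytosolic ribosomal protein probes (left, in %) and median log2 intensity of the 82 tested members minus that of 107 other bright named probes within each array (right), for the 12 groups. Points are arrays, coloured by slide, and bars are means of 2 arrays. On the left, naive and Treg arrays lie between 8.06% and 9.04% and TFH and TFR arrays between 6.40% and 7.61%.

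The difference between TFH and naive cells at d12 p.i. asks what changes when a CD4 T cell joins the follicular response. On quantile-normalised values 19.8% of all tested probes and 1 of 82 members were called. That member was Rpl36a, a protein of the large subunit with its probe at chrX:131122540-131122599 (mm9). Its intensities were 170900 and 163800 in naive and 102400 and 126100 in TFH cells. The groups did not overlap, and the log2 difference was -0.56 ± 0.149 (SE, n = 2 per group, adjusted p = 0.0241, limma). The 2 other probes of Rpl36a had log2 differences of -0.64 and -1.05. Leaving out pLN d12 TFH replicate 1 gave -0.41 (adjusted p = 0.172), and leaving out either naive array also ended the call. At d25 p.i. the intensity was 170600 in naive and 123400 in TFH cells.

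Rps19, a small-subunit protein whose loss causes Diamond-Blackfan anaemia, had intensities of 291800 and 262500 in naive and 211100 and 203500 in TFH cells at d12. The groups were apart, with a log2 difference of -0.42 ± 0.139 (SE, adjusted p = 0.0614, limma). After scaling to the 75th percentile alone Rps19 fell by 1.35 on the log2 scale (adjusted p = 0.00301). Rps3, which lines the mRNA entry of the small subunit, had 204100 and 174000 in naive and 148400 and 137400 in TFH cells. Its log2 difference was -0.40 ± 0.154 (adjusted p = 0.106) and -1.25 after scaling to the 75th percentile (adjusted p = 0.0018). Rps4x, a small-subunit protein encoded on the X chromosome, had the lowest adjusted p under that scaling, where it fell by 1.31 (adjusted p = 0.000553). Its brightest probe maps to chr3 in the array's annotation and not to the gene's own chromosome, as for Rpl28, Rpl36, Rps27 and Rps29, so processed copies may share that signal.

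Proteins of the ribosomal stalk, which recruits elongation factors, had probes among the brightest, whose level quantile normalisation fixes as a whole. Rplp0 had quantile-normalised intensities of 355200 and 368300 in naive and 359300 and 379200 in TFH cells, a log2 difference of 0.03 ± 0.145 (95% interval -0.29 to 0.35). The differences of Rplp1 and Rplp2 were -0.21 and 0.03, neither called. After scaling to the 75th percentile Rplp1 fell by 1.04 (adjusted p = 0.00131, limma), whereas Rplp0 at -0.85 and Rplp2 at -0.77 did not pass (adjusted p = 0.0672 and 0.0506). Other probes at levels of 18 and above had a median of -0.89 on that scale.

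Rps6, the small-subunit protein that S6 kinases phosphorylate downstream of mTOR, had 254900 and 276400 in naive and 233600 and 252900 in TFH cells after quantile normalisation. The difference of -0.13 ± 0.157 was within the spread. On the 75th-percentile scale its intensities were 416400 and 398100 in naive and 167700 and 235900 in TFH cells. There the groups were well apart, and Rps6 fell by 1.03 (adjusted p = 0.0327, limma). Rpsa, a small-subunit protein also known as the laminin receptor, gave 0.16 ± 0.218 after quantile normalisation and -0.69 (adjusted p = 0.014) after scaling to the 75th percentile. Rpl5 and Rpl11 sit with the 5S rRNA in the large subunit and can bind Mdm2 when free. After quantile normalisation, which fixes the level of the brightest probes as a whole, Rpl11 lay between 302300 and 346200 on all 20 arrays. On the 75th-percentile scale Rpl11 differed by -0.87 between TFH and naive cells, so its narrow range rested on the scaling. Rpl5 varied too much between replicates to be called after quantile normalisation, at -0.74 ± 0.44.

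**Figure D3:**
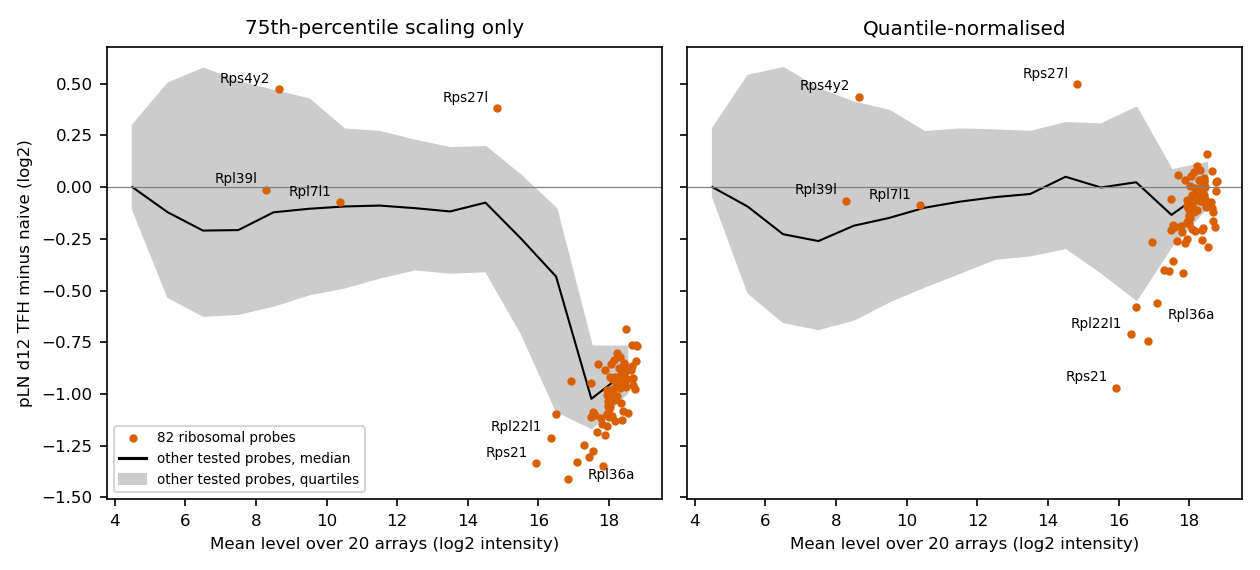
Log2 difference between pLN d12 TFH and naive cells (y axis) against the mean level over 20 arrays (x axis, log2 intensity) after scaling to the 75th percentile (left) and after quantile normalisation (right). Orange points are the 82 tested members, the black line and grey band the median and quartiles of the other tested probes in bins of 1 log2 unit. On the left the line lies at -1.02 for levels of 17 to 18 and at -0.89 for levels of 18 and above, where most members lie. Rps27l at 0.38 and Rps4y2 at 0.47 stand above 0.

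The level of a probe went with its difference, so members were also set beside other probes of like level. For levels of 18 and above, the median difference between pLN d12 TFH and naive cells on quantile-normalised values was -0.04 over 50 members and -0.01 over 170 other probes. For levels of 17 to 18 it was -0.19 over 23 members and -0.13 over 411 other probes. In the bin from 16 to 17 the 4 members had a median of -0.65 and the 409 other probes a median of 0.02. The dimmest members had -0.07 (Rpl39l), 0.44 (Rps4y2) and -0.09 (Rpl7l1). The standard errors of Rpl39l and Rpl7l1, given below, are too wide to exclude a difference of -0.65. When all 186 tested member probes were counted, 10 were called in this comparison, 12 between PP TFR and Treg cells, 9 between PP GL7+ TFH and Treg cells and 15 between PP and pLN TFR cells. Each of these is a smaller share than that of all tested probes called in the same comparison (19.8%, 12.1%, 13.1% and 16.2%).

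Paralogs were set beside their partners. Rps27l, a paralog of Rps27 that is induced by p53 in other cells, was the one member called as higher on quantile-normalised values, between pLN d12 TFR and Treg cells, where 11.6% of all tested probes were called. Its probe lies at chr9:66795486-66797176 (mm9). Intensities were 41180 and 45270 in TFR, 26340 and 28170 in Treg, 26730 and 32050 in TFH and 19510 and 22000 in naive cells. TFR arrays were above all other pLN d12 arrays and naive arrays below all of them. The log2 difference between TFR and Treg cells was 0.66 ± 0.178 (SE, n = 2 per group, adjusted p = 0.0375, limma), and leaving out any 1 of these 4 arrays gave 0.60 to 0.73 with the call lost (adjusted p = 0.114 to 0.192). At d25 p.i. the intensities were 35610 in TFR, 29310 in Treg, 28760 in TFH and 21630 in naive cells, with TFR cells again highest and naive cells lowest. On the 75th-percentile scale the d25 values were 35720 in TFR and 35780 in Treg cells, so the order of these 2 arrays rested on the scaling.

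In PP, Rps27l had 28050 and 33430 in TFR and 28490 and 31690 in Treg cells, so that these groups overlapped (log2 difference 0.03 ± 0.178). The difference between the tissues in the step from Treg to TFR was -0.64 ± 0.251 (adjusted p = 0.476, limma), and 0 members were called in it, with 1 at an unadjusted p under 0.05 and 0.548% of all tested probes called. With slide as a block the same value had an adjusted p of 0.016. Its partner Rps27, a small-subunit protein with a zinc finger, had a log2 difference of -0.20 ± 0.143 between pLN d12 TFR and Treg cells and of -0.07 between TFH and naive cells. Rps27l was also centred on the median of the family within each array, a scaling chosen after seeing the data. It was then 1.37 higher in TFH than in naive cells (adjusted p = 0.000252, limma) and 1.12 higher in pLN TFR than in Treg cells (adjusted p = 0.00265). Centring takes out the family's own fall on the 75th-percentile scale (medians -0.96 and -0.52), so any probe that fell less is raised. Before centring, Rps27l differed by 0.38 and 0.62 on that scale. The 977 other probes of like level had medians of -0.075 and -0.028, so they would be raised too.

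**Figure D4:**
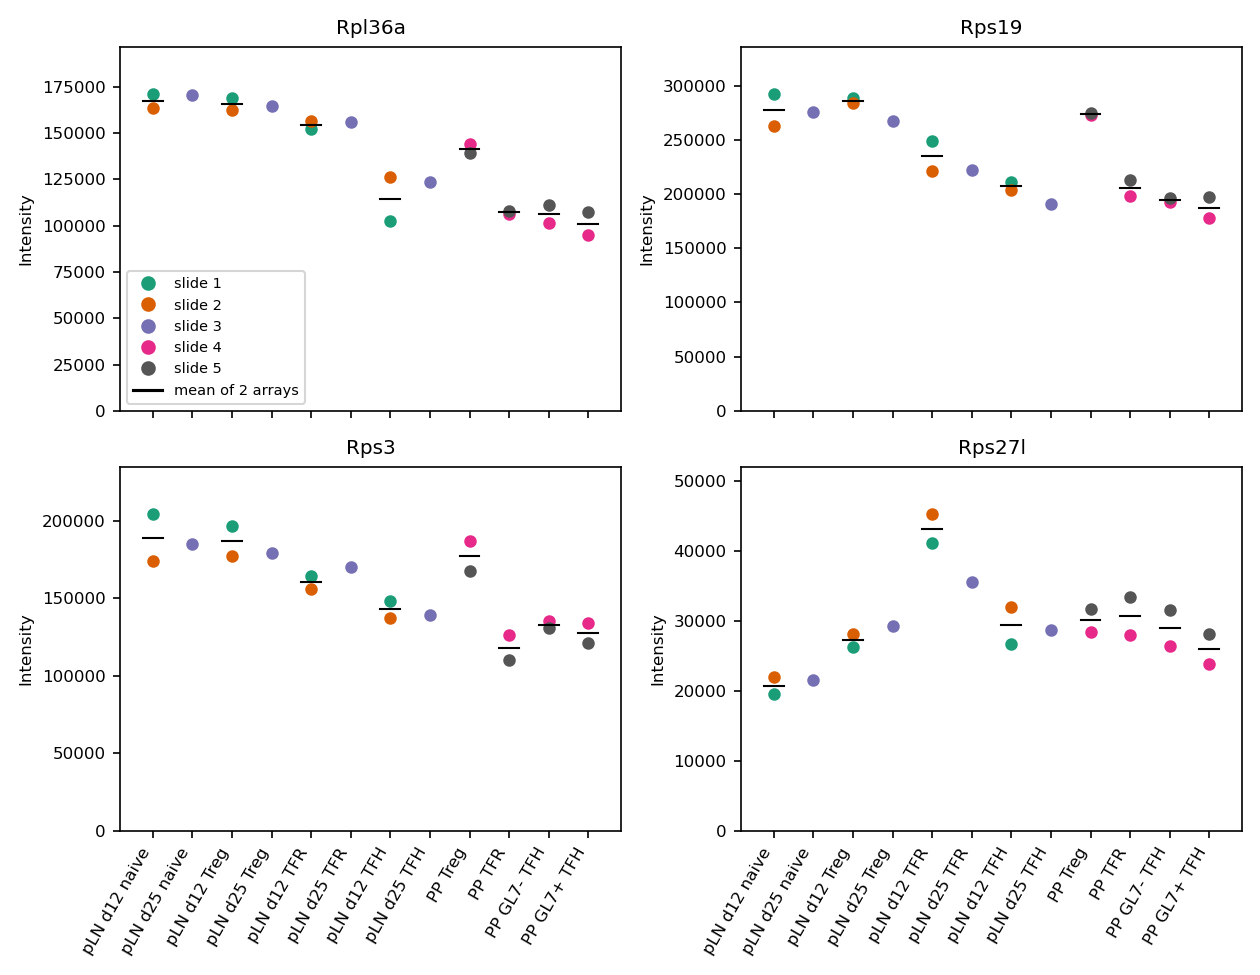
Quantile-normalised intensity (y axis, starting at 0) of Rpl36a, Rps19, Rps3 and Rps27l on the 20 arrays in 12 groups. Points are arrays coloured by slide and bars are means of 2 arrays. Rpl36a, Rps19 and Rps3 are lower in TFH than in naive cells, and Rps27l is highest on the pLN d12 TFR arrays at 41180 and 45270.

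Rpl22l1 is the paralog of Rpl22, a large-subunit protein that T-cell development needs. Rpl22l1 had 106400 and 120500 in naive, 55460 and 86320 in TFH, 90170 and 99350 in Treg and 82760 and 94350 in TFR cells of pLN d12. TFH arrays lay below naive arrays, with a log2 difference of -0.71 ± 0.233 that did not pass after quantile normalisation (adjusted p = 0.0576, limma) and -1.21 (adjusted p = 0.0231) after scaling to the 75th percentile. Rpl22 itself gave -0.06 ± 0.204, and its second probe -0.66. At d25 p.i. Rpl22l1 had 115700 in naive and 69270 in TFH cells.

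Rps4y2, which RefSeq lists as the transcribed pseudogene Rps4l, had 197.5 and 259.9 in naive, 276.5 and 340.3 in TFH, 526.5 and 533.9 in Treg and 623.9 and 576.1 in TFR cells of pLN d12. Both Foxp3+ groups were above both Foxp3- groups. After scaling to the 75th percentile Rps4y2 was the one member that rose between Treg and naive cells, by 1.23 (adjusted p = 0.0486, limma). On quantile-normalised values 0 members were called in that comparison, 1 had an unadjusted p under 0.05, and 4.21% of all tested probes were called. Rpl39l, a paralog of Rpl39 known from testis, had 203.3 and 235.3 in naive and 433.5 and 658.8 in TFR cells of pLN d12. At d25 p.i. it had 370.8 in naive, 335.9 in TFH, 463 in Treg and 403.9 in TFR cells. The TFR array was then below the Treg array and nearer to the naive and TFH arrays. Rpl39l gave -0.07 ± 0.494 between TFH and naive cells and 1.35 ± 0.494 between TFR and TFH cells (adjusted p = 0.183, limma, and 0.00376 with slide as a block). Rpl7l1, which works in ribosome assembly, gave -0.09 ± 0.416 between TFH and naive cells, against -0.09 ± 0.193 for Rpl7. Rps12l2 and its namesake Rps12 gave 0.08 and 0.10.

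In pLN d12, calls between TFR and TFH cells depended on whether slide was in the fit. On quantile-normalised values without it, 0 of 82 members were called between them by limma, 4 had an unadjusted p under 0.05, and 6.03% of all tested probes were called. The median was 0.06. With slide as a block 4 members were called, all higher in TFR cells, beside 23.0% of all tested probes. They were Rps27l at 0.56 (adjusted p = 0.00171, limma), Rps4y2 at 0.97 (0.00299), Rpl39l at 1.35 (0.00376) and Rpl36a at 0.44 (0.0216). After scaling to the 75th percentile 81 of 82 members were higher in TFR cells with a median of 0.23, again with 0 called. The other bright named probes had a median of 0.06. The members' median was 0.43 on slide 1, 0.03 on slide 2 and 0.11 at d25 on slide 3, so most of it came from slide 1. In PP, TFR and GL7+ TFH cells had a median of 0.01, with 0 members called, 0 at an unadjusted p under 0.05 and 3.89% of all tested probes called.

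In PP, TFR cells were lower than Treg cells in Rps3, the one member called there on quantile-normalised values (12.1% of all tested probes were called). Rps3 had 187100 and 167400 in Treg and 126100 and 110000 in TFR cells. The groups did not overlap, and Rps3 fell by 0.59 ± 0.154 (SE, n = 2 per group, adjusted p = 0.0334, limma). Without the arrays of slide 4, which had the highest B-cell and epithelial marker signal, the difference was -0.61 and no member was called with 1 array per group left. Within slides the median of the 82 members on the 75th-percentile scale was -0.70 on slide 4 and -0.90 on slide 5. B-cell markers on slide 4 summed to 108900 in Treg and 142300 in TFR cells, and their part in the result was not tested.

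Between PP GL7+ TFH and Treg cells, 13.1% of all tested probes and 1 member, Rps19, were called. Rps19 had 273300 and 275000 in Treg and 177900 and 197100 in GL7+ TFH cells. The groups were apart, and Rps19 fell by 0.55 ± 0.139 (adjusted p = 0.0257, limma). Rpl36a was close to the threshold, with 143900 and 139400 in Treg and 94950 and 107300 in GL7+ TFH cells (-0.49 ± 0.149, adjusted p = 0.0595). On the 75th-percentile scale all 82 members were lower in GL7+ TFH cells, with medians of -0.73 on slide 4 and -0.81 on slide 5. Other probes of like level fell to a similar extent on that scale. For levels of 17 to 18 the median was -0.87 over members and -0.84 over other probes, and for 18 and above it was -0.73 and -0.68. The Rps19 call was lost on leaving out any 1 of the 4 arrays, at -0.62 to -0.48.

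No test separated GL7+ from GL7- TFH cells of PP in this family, and with 2 arrays per group a small difference would be missed. On quantile-normalised values 0 of 82 members were called by limma and 0 had an unadjusted p under 0.05, in a comparison that called 0.00898% of all tested probes. The methods' t-test gave 0 members at p under 0.05 and 0 after Benjamini-Hochberg adjustment. The median was -0.02, and -0.19 on the 75th-percentile scale with 81 of 82 members lower in GL7+ cells, at -0.17 on slide 4 and -0.21 on slide 5. The other bright named probes had a median of -0.11 on that scale. The members' share of the signal was 6.40% in GL7+ against 6.75% in GL7- cells on slide 4, and 7.16% against 7.61% on slide 5.

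Between tissues, the same cell type was compared in PP and pLN d12. For Treg cells the median was -0.01, with 0 members called, 0 at an unadjusted p under 0.05 and 2.57% of all tested probes called. For GL7+ TFH cells it was -0.03, again with 0 called, 0 at an unadjusted p under 0.05 and 5.97% of all called. For TFR cells it was -0.05, and Rpl36a was called (16.2% of all). Rpl36a had 106200 and 108200 in PP TFR cells and 152500 and 156700 in pLN TFR cells, and fell by 0.53 ± 0.149 (adjusted p = 0.0375, limma). On the 75th-percentile scale 9 members fell in PP TFR cells with a median of -0.38 (11.1% of all tested probes fell), but with slide as a random block 3 were left, and 0 of the calls on quantile-normalised values. Between d25 and d12 in pLN, averaged over the 4 cell types, the median was 0.02, 0 members were called, 0 had an unadjusted p under 0.05, and 0.0539% of all tested probes were called.

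Since slides held 1 array of each group, slide was also fitted as a block within a tissue. On quantile-normalised values this called 16 members between pLN d12 TFH and naive cells, 14 lower and 2 higher (Rps27l and Rps4y2), with 50.7% of all tested probes called. The 14 included Rpl36a, Rps19, Rps3, Rps4x, Rpl22l1 and Rpl5. It called 7 members between pLN TFR and Treg cells, 16 between PP TFR and Treg cells and 17 between PP GL7+ TFH and Treg cells, with 41.0%, 39.1% and 40.3% of all tested probes called. On the 75th-percentile scale 78, 69, 78 and 78 members were lower in these 4 comparisons, where 32.4%, 26.6%, 22.3% and 20.9% of all tested probes were.

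Other genes of the pathway were counted by list. Among 76 mitochondrial ribosomal protein genes, whose products build the ribosome of the organelle, 1 rose and 3 fell between pLN d12 TFH and naive cells on quantile-normalised values, with a median of -0.11, while 19.8% of all tested probes were called. The median was -0.17 after scaling to the 75th percentile, 0.42 after scaling to the total and 0.96 after scaling to the spike-ins, so its direction depended on the scaling. Mrps6 rose by 1.37 (adjusted p = 0.000133, limma) and Mrpl30 fell by 1.24 (adjusted p = 0.0033). Their share of the signal went the opposite way to that of the cytosolic members, with 0.282% ± 0.007 (SD, n = 2) in naive, 0.323% ± 0.00582 in Treg, 0.388% ± 0.00585 in TFH and 0.421% ± 0.00414 in TFR cells of pLN d12. In PP the mitochondrial share was 0.261% ± 0.0212 in Treg, 0.333% ± 0.000819 in TFR and 0.340% ± 0.00458 in GL7+ TFH cells. Shares are parts of a whole, so lists of dimmer probes gain share when bright probes lose it. Other probes with a mean log2 intensity of at least 17 held 46.1% in naive and 39.3% in TFH cells of pLN d12. In PP they held 44.6% in Treg and 39.3% in TFR cells. Whether the mitochondrial list gained more than other dimmer probes was not tested.

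**Figure D5:**
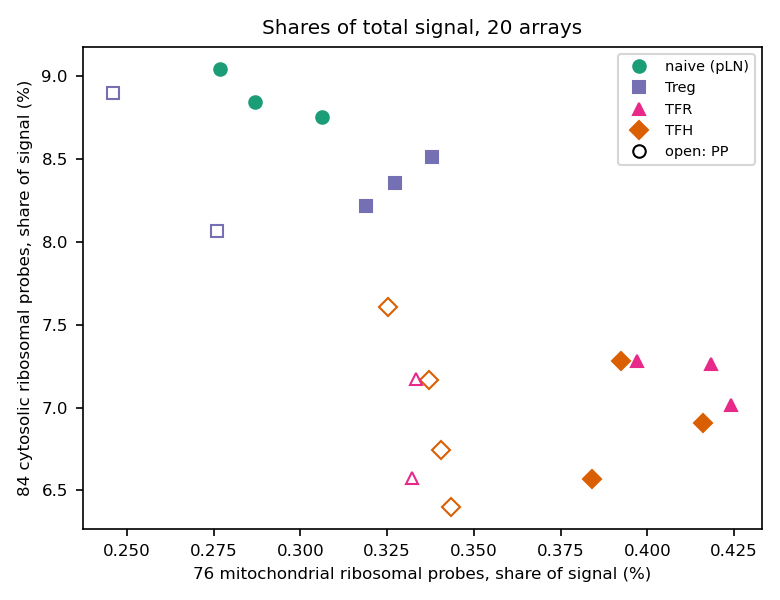
Share of total array signal held by the 84 cytosolic (y axis, in %) and by the 76 mitochondrial ribosomal protein probes (x axis, in %) on the 20 arrays. Symbols give the cell type, filled for pLN and open for PP, and neither axis starts at 0. pLN TFH and TFR arrays lie at lower cytosolic and higher mitochondrial shares than pLN naive arrays. Shares are parts of a whole, so dimmer lists gain share where bright probes lose it.

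Among 20 translation factors and partners whose mRNAs are known as TOP mRNAs, Eef1d (an exchange factor of elongation factor 1) and Eif3e (a subunit of initiation factor 3) fell between pLN d12 TFH and naive cells, both by 0.60, and 0 rose. The same genes fell between PP TFR and Treg cells, by 0.71 and 0.65, and between PP GL7+ TFH and Treg cells, by 0.85 and 0.60. The medians of this list were -0.13, -0.30 and -0.30. The shares of all tested probes called were 19.8%, 12.1% and 13.1%, in the same order. Between pLN d12 TFR and Treg cells 1 rose, Nap1l1, and 1 fell, beside 11.6% of all tested probes called. On the 75th-percentile scale 9 of 20 fell in TFH against naive cells with a median of -0.78, where 10.9% of all tested probes fell. Scaling to the spike-ins turned that median of the list to 0.35. Among 14 genes that control TOP mRNAs, such as Mtor and Larp1, 0 were called between TFH and naive cells by limma and 1 had an unadjusted p under 0.05. Of all tested probes 19.8% were called there. Rps6kb1, an S6 kinase, fell by 0.66 in PP against pLN TFR cells, where 16.2% of all tested probes were called.

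Of 20 genes of ribosome assembly, 5 fell and 0 rose between pLN d12 TFH and naive cells, beside 19.8% of all tested probes called in either direction, with a median of -0.52 beside -0.09 over all tested probes. That median was 0.0037 after scaling to the total and 0.54 after scaling to the spike-ins. The share of the total signal held by this list was 0.0608% and 0.0543% on the TFH and 0.0505% and 0.0538% on the naive arrays, so it was not lower in TFH cells. Myc, the transcription factor that drives ribosome production, fell by 1.92 (adjusted p = 0.00188, limma), and Polr1b and Polr1a, the large subunits of RNA polymerase I, fell by 1.14 and 0.98. Myc and Polr1b were in turn higher in pLN d12 TFR than in TFH cells, by 1.82 and 1.00. Between PP GL7+ TFH and Treg cells 4 of 20 fell (13.1% of all tested probes were called), with Myc at -2.58 on the log2 scale (adjusted p = 0.000498, limma), and between PP TFR and Treg cells 3 of 20 fell (12.1% of all). In PP against pLN TFR cells 8 of the 20 assembly genes fell with a median of -0.66, and 10 of the 76 mitochondrial ribosomal protein genes with a median of -0.40, while 16.2% of all tested probes were called, a larger share than that of the mitochondrial list. Scaled to the 75th percentile, the medians were -0.80 for assembly, -0.65 for the mitochondrial and -0.38 for the cytosolic ribosomal proteins.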

How the data were processed

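RNA of 20 sorted and pooled samples was labelled with a single dye and hybridised to Agilent mouse arrays (annotation on mm9). The deposited scanner files (Agilent Feature Extraction 10.7.3.1) give intensity per feature, background-subtracted and detrended, with other columns that are quality marks set by the deposited software and not intensities. The authors averaged intensity over the 4 features of each probe (geometric mean), applied quantile normalisation, set the 75th percentile to 1500 and raised lower values to 20. The same steps were rebuilt from the scanner files, and the authors' table served to choose the brightest probe of a gene. As a measure of depth, between 43.0% and 58.0% of the probes stood well above background (in at least 3 of 4 features), and 2 arrays per group limit the precision.

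A linear model with 12 group means was fitted to all 20 arrays with limma 3.58.1 in R 4.3.3 (8 residual degrees of freedom), so the d25 groups, with 1 array, borrow their spread from the others. P-values were adjusted by Benjamini-Hochberg over 22264 probes, and calls needed an adjusted p under 0.05. Groups came from the labels. The labels describe arrays as independent experiments. Slide was taken up as a fixed block within and as a random block across tissues. Scaling to the 75th percentile alone, normexp background, detection filter, all probes, left-out arrays and slide 4 were tried as alternatives, and scaling to total signal, spike-ins or the family median was added after seeing the data. The fits were tested on simulated data before use. Named genes were the paralog pairs, Rplp0 to Rplp2, Rpsa, Rps6 and Rpl22, up to 3 called members with the lowest adjusted p in each comparison and direction, and the 10 with the lowest F test p. Other genes named (Rpl5, Rpl11, Rps21, Rps28) were picked after their values were seen. The members and lists were chosen with earlier results of these data known. Of 84 members 83 were matched to RefSeq (GRCm38.p6), which gave names and start-site windows only.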

Additional observations from a re-analysis of the deposited data

How the results depend on the processing

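The number of members called depended on the scaling in several comparisons, while the 5 differences of single members called on quantile-normalised values kept their direction in every alternative run. Medians on quantile-normalised values crossed 0 on leaving out 1 array for PP against pLN TFR (-0.103 to 0.012), GL7+ TFH (-0.0911 to 0.0502) and Treg cells (-0.024 to 0.0206), pLN TFR against TFH (-0.0166 to 0.101), pLN Treg against naive (-0.0178 to 0.0062), PP TFR against GL7+ TFH (-0.0191 to 0.0667) and GL7+ against GL7- TFH (-0.0672 to 0.0176). Other scalings or probe sets turned some medians too, most of them under the spike-in scaling. Counts are listed in the order TFH against naive, TFR against Treg (both pLN d12), TFR against Treg, GL7+ TFH against Treg (both PP) and PP against pLN TFR cells. From 1 member each on quantile-normalised values, the counts became 61, 2, 26, 22 and 9 with 75th-percentile scaling only, where Treg against naive gave 1 and the F test 12. Normexp background gave 2 in the first and last. Total-signal scaling gave 10, 1 (Treg against naive), 4 and 3 (PP) and 3 by the F test. Spike-in scaling gave 2 in the first and 0 in the other 4. Centring on the members' own median gave 4 in the first, 1 for Treg against naive, 2 for PP TFR against Treg, 0 in the last 2 and 2 by the F test. Without a detection filter the counts were 6, 2, 4, 4 and 7, with 1 for pLN TFR against TFH, 2 for GL7+ TFH between tissues and 4 by the F test. All matching probes gave 10, 3, 12, 9 and 15 and 5 by the F test. A fit of only the groups compared gave 0 in all 5. Slide as a fixed block gave 16, 7, 16 and 17, with 2 for Treg against naive, 4 for pLN TFR against TFH and 1 for the Treg to TFR step between tissues. Slide as a random block gave 0 for PP against pLN TFR and 4 by the F test. Without slide 4 the counts were 0, 0, 0 and 0 (1 for Treg against naive).

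For the members lower on the 75th-percentile scale (61, 2, 26, 22 and 9), quantile normalisation left 1, 0, 1, 1 and 1, total-signal scaling 8, 0, 4, 3 and 1, and spike-in scaling 0 throughout. Slide as a block gave 78, 69, 78, 78 and 3, dropping slide 4 gave 0 for pLN TFR against Treg, 0 and 0 in PP and 2 between tissues, all matching probes 113, 7, 56, 48 and 28, and only the groups compared 0 in all. Leaving out 1 array at a time gave 12 to 60, 0 to 0, 3 to 24, 0 to 18 and 0 to 4. Naive replicate 1 (12) and TFH replicate 1 (14) moved the first most, and PP GL7+ TFH replicate 1 (0), PP Treg replicate 2 (0 and 3) and PP TFR replicate 2 (4) the PP counts. On quantile-normalised values it gave 0 to 2 for TFH against naive (2 without TFH replicate 2) and 0 to 0 for every other comparison. The contrast of members with other bright named probes ranged from -0.626 to -0.421, -0.270 to -0.157, -0.588 to -0.397, -0.640 to -0.449 and -0.296 to -0.222 when 1 array was left out, and with the 301 comparison probes from a log2 of 16 it was -0.71, -0.34, -0.60 and, between tissues, -0.10. The cause of these changes was not tested, except that leaving out arrays or groups leaves fewer arrays to the fit. The labels give no replicate numbers, so arrays were paired through their slide, and the slide block values above are the paired analysis.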
